A study of Mus musculus with 6 samples.

Results

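Histone deacetylases (HDACs) were followed by class in leg muscle of WT and *SYISL* KO mouse fetuses. The genes were taken by symbol: *Hdac1*, *Hdac2*, *Hdac3* and *Hdac8* of class I, *Hdac4*, *Hdac5*, *Hdac7* and *Hdac9* of class IIa, *Hdac6* of class IIb and *Hdac11* of class IV. These are 10 of the 56262 genes in the count table, and all 10 were among the 22071 genes with enough counts to be tested. In KO muscle, *Hdac9* and *Hdac4* were higher and *Hdac1* was lower, by at most 21.9%. None of the 10 genes changed by more than 1.5-fold.

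HDACs remove acetyl groups from lysines of histones and other proteins, and deacetylated chromatin is in general less accessible to transcription. Class I enzymes are mainly nuclear and, apart from *Hdac8*, act as the catalytic subunits of large corepressor complexes. Class IIa enzymes have little deacetylase activity of their own. They bind MEF2 transcription factors in muscle and bring corepressors to their target genes, and they leave the nucleus when calcium-dependent kinases phosphorylate them and 14-3-3 proteins bind the phosphorylated sites. *Hdac6* acts mainly in the cytoplasm, on tubulin and HSP90, and *Hdac11* is the only enzyme of its class. Butyrate, a bacterial fatty acid that the study followed from mother to fetus, inhibits the activity of class I enzymes, which transcript counts do not measure.

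The RNA-seq covered leg muscle of embryonic day 18.5, with 3 WT and 3 KO samples. The KO fetuses lack *SYISL*, a lncRNA transcribed from within the *Synpo2* locus. Mice were mated with partners of their own genotype, so the genotype of the fetus cannot be told apart from that of the mother. WT mice came from an animal center and KO mice from a line made earlier by the same group, and the labels name no strain.

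The depth was 82054811 to 102233181 counts per sample, and log2 fold changes are KO over WT from edgeR. Whether a sample is 1 fetus or a pool is not stated, and p-values measure only the spread between the samples. The 4 Y-linked genes had 15747, 2 and 7369 counts in WT samples 1, 2 and 3 and 7, 6179 and 6244 in KO samples 1, 2 and 3. *Xist*, expressed from the inactive X chromosome of females, had 140, 64818 and 43567 counts across the WT group and 78491, 56075 and 58799 across the KO group, so WT sample 3 and KO samples 2 and 3 held both. *Synpo2*, the host gene, had 131 to 139 CPM in WT samples and 193 to 229 CPM in KO samples, and the counts do not show the deletion of *SYISL* itself. The 9 muscle fiber markers summed to 19067 to 21310 CPM in WT and 40119 to 48301 CPM in KO samples, and 8 of 9 were higher. The 10 epidermal markers summed to 17482 to 25942 CPM in WT and 772 to 892 CPM in KO samples, and 10 of 10 were lower. Of the other lists, 5 of 5 red blood cell and 7 of 8 proliferation markers were lower, and 7 of 7 macrophage, 6 of 6 fat, 6 of 8 endothelial, 5 of 6 fibroblast and 4 of 5 glial markers were higher. Cartilage markers went both ways, with 2 higher and 4 lower of 6, and 2 of 5 myoblast markers were lower. No marker was at 0 in all samples. Results on HDAC genes and the genes listed with them may hold a part of these cell types and of the sex of the samples. That part was not tested beyond the values given beside them. In bulk RNA, fewer cells of a type and less RNA per cell cannot be told apart.

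The 10 genes were all expressed, at levels that differed between the lowest and the highest by more than the spread over samples. Compared per kilobase of exon, class I genes took the 3 highest places. *Hdac2* had a mean of 32.4 CPM per kilobase over the 6 samples (range 30.4 to 36.1), *Hdac1* had 24.5 (21.8 to 27.3) and *Hdac3* had 20.1 (19.0 to 21.03). *Hdac7* and *Hdac5* of class IIa followed with 13.7 (13.0 to 14.6) and 9.98 (8.61 to 10.8) CPM per kilobase. *Hdac6* had 5.29 CPM per kilobase (5.09 to 5.50) and *Hdac11* had 4.56 (4.30 to 4.97). *Hdac4*, *Hdac8* and *Hdac9* were lowest, with 1.99 (1.82 to 2.11), 1.93 (1.77 to 2.07) and 1.78 (1.58 to 2.01) CPM per kilobase. Within each genotype, neighbors in this order were separated in all 3 samples, but 2 pairs stood in the reverse order in 1 genotype. In WT samples *Hdac8* lay above *Hdac4*, with means of 2.03 and 1.875 CPM per kilobase. In KO samples *Hdac9* lay above *Hdac8*, with means of 1.96 and 1.82 CPM per kilobase. The merged exons of *Hdac4* (15813 bases) and *Hdac9* (14665 bases) are the longest of the 10, and that of *Hdac1* (3445 bases) is the shortest, so their order by CPM alone is different.

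**Figure D1:**
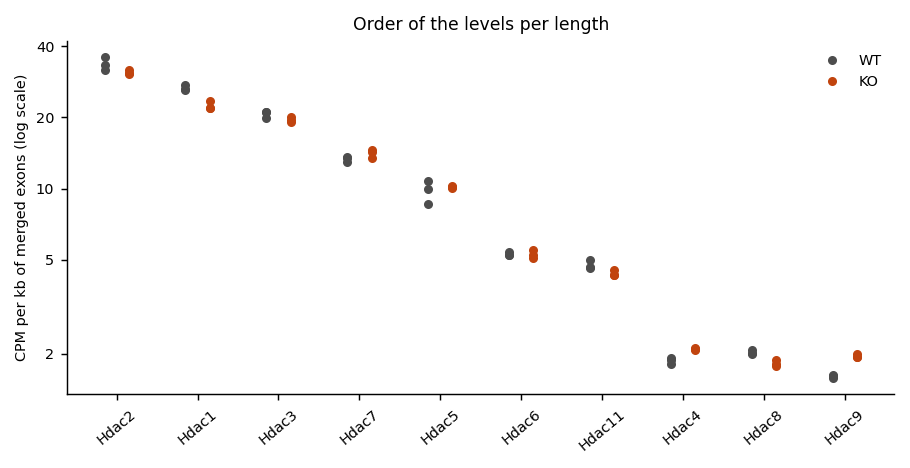
Levels of the 10 HDAC genes in CPM per kilobase of merged exon, with 1 point for each of the 3 WT and 3 KO samples, ordered by the mean, on a log axis. *Hdac2* is highest with a mean of 32.4 CPM per kilobase and *Hdac9* lowest with 1.78, and the 3 lowest genes lie close together.

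Between genotypes, 3 of 10 HDAC genes passed the test at an adjusted p under 0.05 (30%), where 45.0% of all genes tested did. In KO samples 2 were higher, beside 21.9% of all genes, and 1 was lower, beside 23.1% of all genes. A fold change over 1.5 in addition was reached by 0 of 10 in edgeR, where 16.7% of all genes reached it (8.31% higher and 8.39% lower), and likewise by 0 at an unadjusted p under 0.05, by DESeq2 and by limma-voom. An unadjusted p under 0.05 was found for 5 of the 10, and for at least the 45.0% of all genes that passed after adjustment. In 6 of the 10, the 3 KO values did not overlap the 3 WT values, and 55.9% of all genes showed this. The median size of the change over the HDAC genes, without sign, was 0.12 on the log2 scale, beside 0.22 over all genes.

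**Figure D2:**
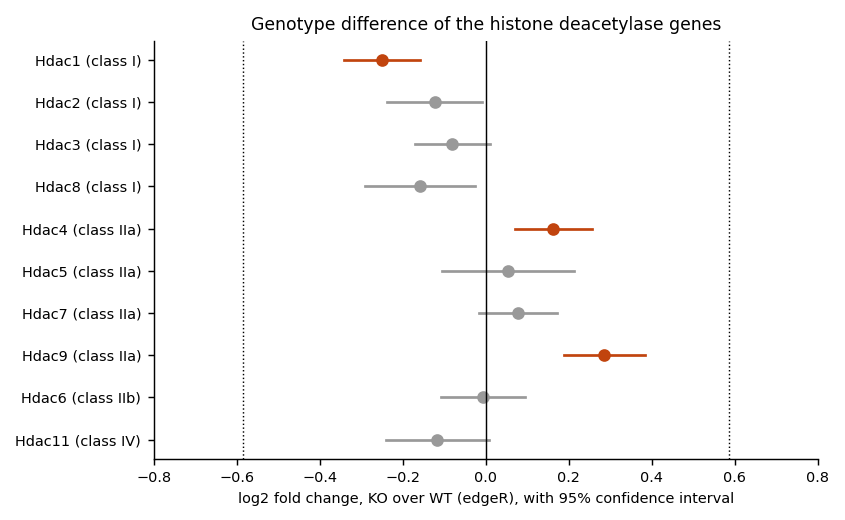
Log2 fold change of KO over WT for each HDAC gene, grouped by class, with its 95% confidence interval from edgeR's quasi-likelihood fit, in orange where the adjusted p is under 0.05. *Hdac9* (0.29) and *Hdac4* (0.16) lie above 0 and *Hdac1* (-0.25) below 0, and no gene reaches the 1.5-fold change that the dotted lines mark.

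Of class I, *Hdac1* was lower in KO muscle, and *Hdac2*, *Hdac3* and *Hdac8* had means below those of WT that did not pass the test. *Hdac1* and *Hdac2* are the close paralogs that form the catalytic core of the NuRD, SIN3, CoREST and MiDAC complexes. *Hdac1* (ENSMUSG00000028800.15, mm10 chr4:129516104-129542713, minus strand) had 90.5, 94.1 and 90.3 CPM in WT samples and 80.6, 75.3 and 75.2 CPM in KO samples. Each KO value lay below each WT value, with means of 91.7 ± 2.15 and 77.0 ± 3.05 CPM (SD, n = 3 each). KO over WT, the log2 change was -0.25 (SE 0.041, 95% interval -0.34 to -0.16, edgeR adjusted p = 0.000864), a decrease by 15.9%. The call held with every other scaling, test, filter and covariate tried, and without each sample in turn the value lay between -0.28 and -0.23.

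*Hdac2* (ENSMUSG00000019777.16, chr10:36974544-37001889, plus strand) had 161, 149 and 142 CPM in WT samples and 136, 142 and 138 CPM in KO samples. The groups came close without overlapping, since the lowest WT sample had 142.1 CPM and the highest KO sample 141.7 CPM. Its log2 fold change was -0.12 (SE 0.050, 95% interval -0.24 to -0.0099, edgeR adjusted p = 0.0739). WT sample 3 is the lowest of its group, and without it the value was -0.17, with an edgeR adjusted p of 0.0377. Without WT sample 1, the highest, the value was -0.074 (edgeR adjusted p = 0.207). With upper-quartile factors it was -0.056 (edgeR adjusted p = 0.413), and with library size only it was -0.19 and passed (edgeR adjusted p = 0.0119). The ratio of *Hdac1* to *Hdac2* counts was 0.561, 0.630 and 0.636 in WT and 0.593, 0.532 and 0.544 in KO samples. KO sample 1 lay between the WT samples, and the difference of -0.13 in the log2 ratio had p = 0.2 in a two-sided exact permutation test, where 3 against 3 samples cannot go below 0.1.

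*Hdac3*, the enzyme of the NCoR/SMRT corepressor complex (ENSMUSG00000024454.16, chr18:37935844-37955016, minus strand), had 80.4, 85.3 and 85.3 CPM in WT samples and 77.2, 81.3 and 78.8 CPM in KO samples. KO sample 2 lay above WT sample 1, so the groups overlapped. The log2 fold change was -0.081 (SE 0.040, 95% interval -0.17 to 0.0088, edgeR adjusted p = 0.130).

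*Hdac8*, which works outside the large corepressor complexes and deacetylates the cohesin subunit SMC3 (ENSMUSG00000067567.12, chrX:102284639-102505359, minus strand), was the class I gene with the fewest reads. It had 10.04, 9.67 and 9.81 CPM in WT samples and 9.12, 8.58 and 8.74 CPM in KO samples, that is 799 to 1035 and 818 to 855 counts. Each KO value lay below each WT value. KO over WT, the log2 change was -0.16 (SE 0.059, 95% interval -0.29 to -0.026, edgeR adjusted p = 0.0530), just short of the threshold. It passed with limma-voom (adjusted p = 0.0450), with a filter of at least 10 counts in every sample (edgeR adjusted p = 0.0472) and without KO sample 1 (-0.18, edgeR adjusted p = 0.0409). It also passed with library size only (-0.23, edgeR adjusted p = 0.0213), while with upper-quartile factors it was -0.091 (edgeR adjusted p = 0.276). DESeq2 (adjusted p = 0.107), RLE factors, no filter on low counts, a replicate block and a covariate for the Y-linked share left it short of the threshold. So did leaving out any sample other than KO sample 1.

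**Figure D3:**
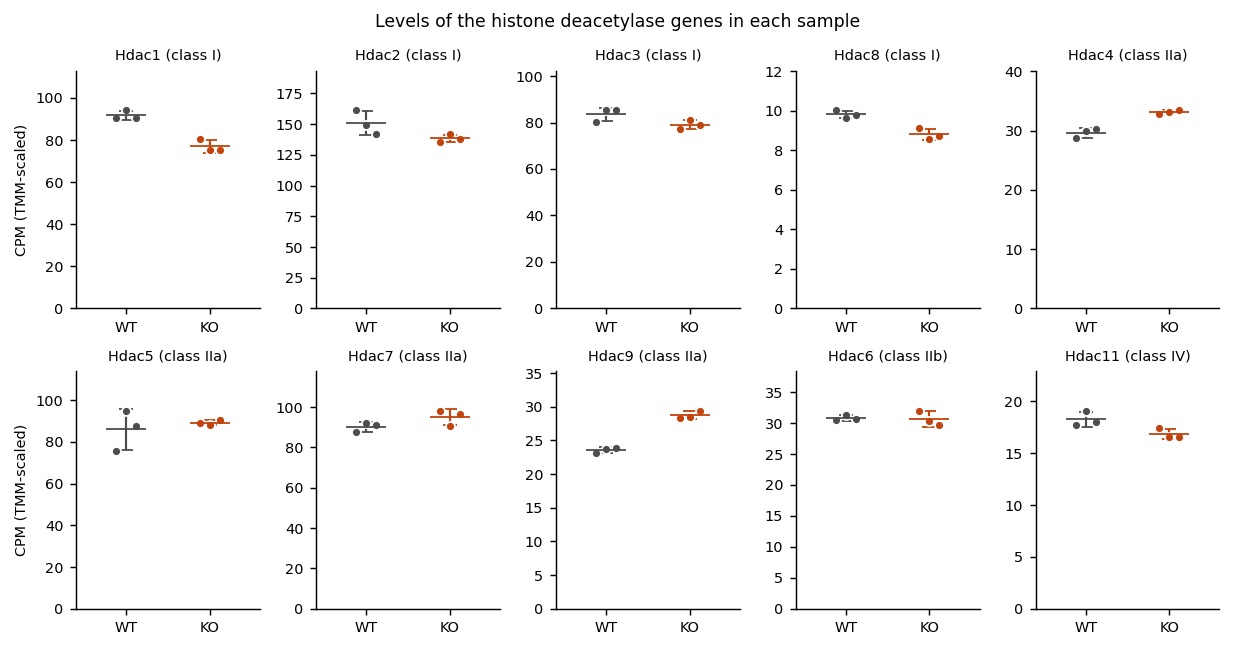
CPM of each HDAC gene in every sample, 1 panel a gene, with points for the 3 WT and 3 KO samples and the mean of each group. The groups are apart in *Hdac1*, *Hdac2*, *Hdac8*, *Hdac11*, *Hdac4* and *Hdac9* and overlap in *Hdac3*, *Hdac5*, *Hdac6* and *Hdac7*.

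Of class IIa, *Hdac9* and *Hdac4* were higher in KO muscle, and *Hdac5* and *Hdac7* did not pass the test. RefSeq (GRCm38.p6) gives starts for all 4 genes, and the 250 bases before the start are shown here for the genes called higher and for *Hdac5*, whose window alone among the 12 found for 8 HDAC genes holds a match to the MEF2 motif. MEF2 factors are the main partners of class IIa enzymes, and E-boxes (CANNTG, which reads alike on both strands) are bound by MyoD and myogenin. Capitals mark matches to either motif. *Hdac1* and *Hdac3* had no entry. The *Hdac9* windows lie before the gene's outermost start and before a start within the gene. The *Hdac4* window lies within the annotated span of its gene, and all 4 windows are read 5′ to 3′ on the minus strand.
Hdac9, chr12:34917096-34917345: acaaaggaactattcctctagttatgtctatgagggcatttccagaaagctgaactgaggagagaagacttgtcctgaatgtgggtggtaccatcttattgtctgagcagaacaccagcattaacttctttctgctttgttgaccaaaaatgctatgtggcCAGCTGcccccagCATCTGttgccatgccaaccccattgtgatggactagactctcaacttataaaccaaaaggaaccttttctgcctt
Hdac9, chr12:34528890-34529139: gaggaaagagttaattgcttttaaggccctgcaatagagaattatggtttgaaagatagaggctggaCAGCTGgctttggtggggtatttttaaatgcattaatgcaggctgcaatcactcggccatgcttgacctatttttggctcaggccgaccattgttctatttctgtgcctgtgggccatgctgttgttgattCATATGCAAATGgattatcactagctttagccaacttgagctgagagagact
Hdac4, chr1:92180342-92180591: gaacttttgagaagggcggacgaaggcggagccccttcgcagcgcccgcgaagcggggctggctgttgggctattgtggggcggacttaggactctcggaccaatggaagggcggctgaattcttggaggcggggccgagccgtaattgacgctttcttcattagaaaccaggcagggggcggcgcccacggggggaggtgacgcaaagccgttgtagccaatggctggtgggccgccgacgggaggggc
Hdac5, chr11:102230173-102230422: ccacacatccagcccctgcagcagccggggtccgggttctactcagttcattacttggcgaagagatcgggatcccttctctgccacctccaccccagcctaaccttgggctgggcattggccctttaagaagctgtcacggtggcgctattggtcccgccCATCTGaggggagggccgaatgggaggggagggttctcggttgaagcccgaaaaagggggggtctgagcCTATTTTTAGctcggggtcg

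The first *Hdac9* window holds E-boxes that begin 89 and 76 bases before the start, and the second holds them at 183, 52 and 46 bases, the latter pair side by side. The *Hdac4* window holds neither motif, and *Hdac5* has an E-box at 89 and the MEF2 match at 20 bases before its start. An E-box was found in 7 of 12 HDAC windows (58.3%) and in 66.2% of all 32851 windows of the same length. The MEF2 motif was found in 1 of 12 HDAC windows (8.33%) and in 2.92% of all windows. The GC box GGGCGG, on either strand, was found in 6 of 12 HDAC windows and in 32.7% of all windows. CCAAT, on either strand, was found in 5 of 12 and in 33.8% of all windows. The motifs of the cAMP response element and of NRF1 were in 0 of 12, and in 1.55% and 0.782% of all windows. The 2 *Hdac9* windows had a GC content of 44.4% and 43.6%, below the median of 52.4% over all windows, while those of *Hdac4* and *Hdac5* had 65.2% and 60.8%. A match describes these letters and is not a binding site.

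*Hdac9*, a repressor of MEF2 that is itself known as a MEF2 target in muscle (ENSMUSG00000004698.11, chr12:34047580-34917095, minus strand), showed the largest change of the 10 genes with TMM. With library size only it was 0.22, smaller in size than *Hdac1* (-0.32) and *Hdac8* (-0.23). It had 23.2, 23.7 and 23.9 CPM in WT samples and 28.3, 28.5 and 29.4 CPM in KO samples. The groups were far apart beside their spread, with means of 23.6 ± 0.388 and 28.7 ± 0.602 CPM (SD, n = 3 each). The log2 fold change was 0.29 (SE 0.044, 95% interval 0.19 to 0.38, edgeR adjusted p = 0.000577), an increase by 21.9%. The call held with every other scaling, test, filter and covariate tried, and without each sample in turn the value lay between 0.27 and 0.30.

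The genes most like *Hdac9* over the 6 samples, by the root mean square difference of log2 CPM centered on each gene's mean, were searched among 12370 genes with at least 5 CPM. The closest were *Fam122b* (difference 0.0114), *Klc2* (0.0130), which encodes a kinesin light chain, *Pdlim7* (0.0138), which encodes an actin-associated PDZ and LIM protein, *Oxsm* (0.0149), an enzyme of mitochondrial fatty acid synthesis, and *Man1c1* (0.0154), a Golgi mannosidase. Their log2 fold changes were 0.26 to 0.31. The 6 samples are in 2 groups, so this measure includes the difference between genotypes.

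*Hdac4*, which represses MEF2 targets in muscle and rises after denervation (ENSMUSG00000026313.16, chr1:91928779-92195699, minus strand), had 28.7, 29.9 and 30.3 CPM in WT samples and 32.9, 33.2 and 33.4 CPM in KO samples. The KO samples lay close together and above all WT samples, with means of 29.6 ± 0.833 and 33.2 ± 0.276 CPM (SD, n = 3 each). KO over WT, the log2 change was 0.16 (SE 0.041, 95% interval 0.069 to 0.25, edgeR adjusted p = 0.0104), an increase by 11.9%. With library size in place of TMM factors it was 0.093 and no longer passed (edgeR adjusted p = 0.129). A lincRNA on the other strand, *Gm26720*, shares 3536 exon bases with *Hdac4*, and the strand setting of the counting is not stated.

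*Hdac5*, another MEF2 repressor that is exported from the nucleus on phosphorylation (ENSMUSG00000008855.17, chr11:102194432-102230166, minus strand), varied more among WT samples, relative to its mean, than any other HDAC gene. It had 75.6, 94.9 and 87.3 CPM in WT samples and 89.1, 88.2 and 90.4 CPM in KO samples. All KO samples fell within the WT range. The log2 fold change was 0.054 (SE 0.071, 95% interval -0.11 to 0.21, edgeR adjusted p = 0.574), and without WT sample 1, the lowest, it was -0.031. The 3 WT samples had the same order in *Hdac5* as in the summed epidermal markers, which were 17482, 25942 and 19421 CPM in WT samples 1, 2 and 3. The KO samples had 772 to 892 CPM of these epidermal markers. *Xist* counts had the same order over the WT samples as *Hdac5* (140, 64818 and 43567), and Y-linked counts the reverse (15747, 2 and 7369). With a covariate for the Y-linked share of the counts, the log2 fold change of *Hdac5* was -0.0046 (SE 0.043, edgeR adjusted p = 0.942). The part of epidermis and of sex in *Hdac5* was not tested beyond these values.

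*Hdac7*, known best from endothelium and thymocytes (ENSMUSG00000022475.19, chr15:97792664-97844502, minus strand), had 87.6, 92.1 and 91.2 CPM in WT samples and 98.3, 90.8 and 96.6 CPM in KO samples. KO sample 2 lay below both higher WT samples, so the groups overlapped. KO over WT, the log2 change was 0.078 (SE 0.042, 95% interval -0.018 to 0.17, edgeR adjusted p = 0.168), and of the alternatives it passed with upper-quartile factors only (0.15, edgeR adjusted p = 0.0203). Endothelial markers, which mark a cell type known to express *Hdac7*, summed to 724 to 757 CPM in WT and 833 to 873 CPM in KO samples. The ratio of *Hdac7* to *Hdac9* counts was 3.78, 3.89 and 3.82 in WT and 3.47, 3.19 and 3.28 in KO samples. All KO ratios were lower, with a log2 difference of -0.21 (two-sided exact permutation test, p = 0.1, the smallest that 3 against 3 samples allow). The ratio of *Hdac4* to *Hdac5* was 0.380, 0.315 and 0.347 in WT and 0.369, 0.377 and 0.370 in KO samples, and the log2 difference of 0.10 had p = 0.4 in the same exact permutation test. It was 0.17 without WT sample 1 and 0.034 without WT sample 2.

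The remaining classes did not pass the test. *Hdac6*, the deacetylase of tubulin and HSP90 (ENSMUSG00000031161.15, chrX:7930120-7947889, minus strand), had 30.5, 31.4 and 30.6 CPM in WT samples and 32.0, 30.4 and 29.6 CPM in KO samples. The groups overlapped fully. The log2 fold change was -0.0075 (SE 0.045, edgeR adjusted p = 0.908) with a 95% interval of -0.11 to 0.094.

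*Hdac11*, known as a remover of fatty acyl groups as well as a deacetylase (ENSMUSG00000034245.10, chr6:91156665-91174692, plus strand), had 17.7, 19.1 and 18.0 CPM in WT samples and 17.4, 16.6 and 16.6 CPM in KO samples. Each KO value lay below each WT value by a small margin. KO over WT, the log2 change was -0.12 (SE 0.055, 95% interval -0.24 to 0.0079, edgeR adjusted p = 0.117). With a covariate for the Y-linked share of the counts it was -0.14 and passed (edgeR adjusted p = 0.0324). It also passed with library size only (-0.18, edgeR adjusted p = 0.0325), while with upper-quartile factors it was -0.048 (edgeR adjusted p = 0.512).

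Read by class, the 2 main classes lay on opposite sides of 0. Class I had a median log2 fold change of -0.14, with 4 of 4 genes below 0 in each alternative. Class IIa had a median of 0.12, with 4 of 4 genes above 0, except that *Hdac5* was below 0 with library size only, with the Y-linked covariate and without WT sample 1. The median over all genes was -0.0041. The class medians rest on 1 called gene of 4 in class I and 2 of 4 in class IIa, and at 4 genes a class these are descriptions only.

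The sum of the class I genes was 328 to 342 CPM in WT and 301 to 307 CPM in KO samples, and that of class IIa was 215 to 240.6 CPM in WT and 240.7 to 250 CPM in KO samples. All 10 genes together summed to 606, 630 and 609 CPM in WT and 601, 594 and 597 CPM in KO samples. Each KO total lay below each WT total with TMM, RLE factors and library size only, but with upper-quartile factors the KO totals were the higher ones, at 606 to 619 against 596 to 604 CPM. The class I sum was lower in each KO sample under all 4 scalings, and the class IIa sum higher under all but library size only, where the groups overlapped. Per kilobase, class I made up 70.8%, 68.6% and 68.7% of the total of these 10 genes in WT and 65.8%, 67.0% and 66.0% in KO samples. Class IIa made up 20.97%, 22.9% and 22.9% in WT and 25.3%, 24.5% and 25.6% in KO samples. The groups did not overlap in either share. The differences were -3.07 percentage points for class I (69.4 ± 1.21% in WT and 66.3 ± 0.653% in KO, SD, n = 3, two-sided exact permutation test, p = 0.1) and 2.89 points for class IIa (22.3 ± 1.11% and 25.1 ± 0.585%, n = 3, exact permutation test, p = 0.1). *Hdac6* took 4.43 ± 0.0266% in WT and 4.68 ± 0.159% in KO samples (n = 3, exact permutation test, p = 0.1). *Hdac11* took 3.96 ± 0.104% and 3.89 ± 0.0879% (n = 3, exact permutation test, p = 0.4). Shares within a sample do not depend on the scaling between samples, but 3 against 3 samples cannot reach 0.05. Muscle fiber markers were higher and epidermal markers lower in each KO sample, as given above, and their part in the shares was not tested.

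**Figure D4:**
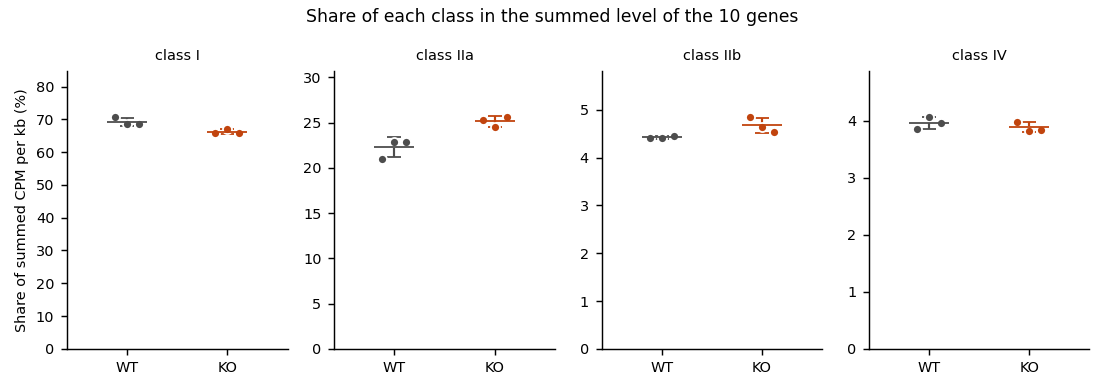
Share of each HDAC class in the summed CPM per kilobase of the 10 genes, in percent, with 1 point a sample. The class I share is 68.6% to 70.8% in WT and 65.8% to 67.0% in KO samples, and the class IIa share is 20.97% to 22.9% in WT and 24.5% to 25.6% in KO samples.

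The proteins through which these enzymes work were taken from 13 lists with 110 genes, each counted once and all tested. In KO muscle 22 of 110 were higher (20%, beside 21.9% of all genes) and 34 were lower (30.9%, beside 23.1% of all genes). Upper-quartile factors turned this split to 30 higher and 21 lower, and library size only gave 18 and 52. Over all genes, the calls were 48.7% higher with TMM, 62.0% under upper-quartile factors and 36.6% with library size only. The TMM counts of each list below stand beside the same shares of all genes, 21.9% higher and 23.1% lower.

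In the complexes built around *Hdac1* and *Hdac2*, the genes called were mostly lower with TMM. In NuRD, 6 of 12 genes were lower and 0 higher (median log2 fold change -0.13). *Mta3*, a scaffold subunit that recruits HDAC1 and HDAC2, had 36.7 ± 3.39 CPM in WT samples and 26.0 ± 0.724 CPM in KO samples (-0.50, edgeR adjusted p = 0.000218). *Gatad2a*, which links MBD proteins to the remodeler, was 126 ± 7.70 and 96.6 ± 1.69 CPM (-0.38), and *Chd3*, a remodeling ATPase, was 315 ± 23.8 and 253 ± 17.9 CPM (-0.31). In SIN3, 4 of 13 genes were lower and 0 higher (median -0.097), led by *Suds3*, a subunit needed for the activity of the complex, with 66.7 ± 0.903 and 54.3 ± 0.749 CPM (-0.30, edgeR adjusted p = 9.6e-05). *Sin3b*, a scaffold, and *Sap18* were lower, each with a log2 fold change of -0.14. In CoREST, 4 of 9 genes were lower and 1 higher (median -0.062). Its scaffolds went both ways, with *Rcor1* (-0.24) and *Rcor2* (-0.29) lower and *Rcor3* higher (0.27), and the DNA-binding subunit *Hmg20b* was lower (-0.29). Of MiDAC, 1 of 3 was lower (*Elmsan1*, -0.20, edgeR adjusted p = 0.0360). Of the NCoR/SMRT complex around *Hdac3*, 1 of 5 was lower (*Tbl1xr1*, -0.12, edgeR adjusted p = 0.0204). With upper-quartile factors, *Sin3b*, *Sap18*, *Elmsan1* and *Tbl1xr1* no longer passed, and *Tbl1xr1* also did not with DESeq2 (adjusted p = 0.0523). NuRD had 4 lower and 0 higher under upper-quartile factors and 9 lower and 0 higher with library size only, and SIN3 had 1 lower and 1 higher under upper-quartile factors. The same factors gave 4 lower and 2 higher in CoREST, with a median of 0.0074, 0 lower and 1 higher in MiDAC, and 0 of either in NCoR/SMRT. Proliferation markers, lower in 7 of 8, summed to 1061 to 1095 CPM in WT and 905 to 995 CPM in KO samples, and epidermal markers are given above. Their part in these values was not tested.

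Cohesin, whose subunit SMC3 is a substrate of HDAC8, and its regulators had 3 of 12 genes lower and 0 higher (median -0.078). The count lower is near the share of all genes, 23.1%. *Wapl*, which releases cohesin from chromatin, had 86.2 ± 3.47 CPM in WT samples and 70.9 ± 0.293 CPM in KO samples (-0.28, edgeR adjusted p = 0.000336). *Pds5a*, a cohesin regulator, was lower by 0.21 on the log2 scale. *Smc3*, the subunit that HDAC8 deacetylates, had 130 ± 5.63 and 120 ± 0.285 CPM (-0.12, edgeR adjusted p = 0.0427) and did not pass with upper-quartile factors or DESeq2. Under upper-quartile factors the list had 2 higher and 2 lower.

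On the class IIa side, MEF2 genes and the kinases were mostly higher. Of the 4 MEF2 genes, 3 were higher and 0 lower (median 0.25), and 2 were higher with DESeq2. The gene lost with DESeq2 was past 1.5-fold in edgeR and did not meet the rule for naming. *Mef2c* had 392 ± 17.3 CPM in WT samples and 482 ± 15.1 CPM in KO samples (0.30, edgeR adjusted p = 0.0012), and *Mef2d* had 198 ± 9.93 and 227 ± 11.9 CPM (0.20, edgeR adjusted p = 0.0136, not passing with library size only). Of 12 kinases that phosphorylate class IIa enzymes, 7 were higher and 2 lower (median 0.16). *Camk2b*, a calcium/calmodulin-dependent kinase of muscle and brain, had 42.1 ± 3.48 and 97.2 ± 9.24 CPM (1.21, edgeR adjusted p = 2.25e-06), the only kinase past 1.5-fold. *Sik3*, a salt-inducible kinase, had 87.1 ± 6.13 and 113 ± 2.29 CPM (0.37), and *Camk2d* had 58.5 ± 1.18 and 75.0 ± 4.99 CPM (0.36). *Mark2*, a polarity kinase, was lower, with 70.5 ± 6.74 and 52.0 ± 1.88 CPM (-0.44). Under upper-quartile factors 3 MEF2 genes were higher and 0 lower, and 7 kinases higher and 1 lower. With library size only these counts were 2 and 0, and 6 and 3. Muscle fiber markers had a median log2 fold change of 1.06 and epidermal markers one of -4.29, and their part in these values was not tested.

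The 14-3-3 genes, which hold phosphorylated class IIa enzymes in the cytoplasm, went mostly the other way, with 4 of 7 lower and 1 higher (median -0.15). *Ywhaz* had 413 ± 7.16 CPM in WT samples and 318 ± 1.46 CPM in KO samples (-0.37, edgeR adjusted p = 7.71e-05), and *Ywhaq* was lower by 0.20 on the log2 scale with TMM but did not pass with upper-quartile factors. *Sfn*, the 14-3-3 gene of squamous epithelium, had 224 ± 33.2 and 8.30 ± 0.0917 CPM (-4.75), and the 10 epidermal markers had a median log2 fold change of -4.29. Under upper-quartile factors the list had 2 higher and 2 lower.

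Of 9 muscle genes known to respond to class IIa enzymes, 6 were higher and 2 lower (median 0.22). With DESeq2 these counts were 5 and 2, and with library size only 5 and 3. The list gives no direction of response for its genes, so its counts and median are not read as a common response. *Slc2a4*, the insulin-responsive glucose transporter, had 30.4 ± 0.639 CPM in WT samples and 76.3 ± 12.1 CPM in KO samples (1.33, edgeR adjusted p = 5.64e-06). *Ppargc1a*, the coactivator of mitochondrial genes, had 8.77 ± 0.720 and 17.8 ± 1.82 CPM (1.02), and *Trim63*, a muscle ubiquitin ligase, had 11.1 ± 0.434 and 19.8 ± 2.24 CPM (0.83). *Myog*, the transcription factor of differentiating myocytes, was lower, with 147 ± 5.99 and 126 ± 2.50 CPM (-0.22, edgeR adjusted p = 0.00212). The other gene called lower was past 1.5-fold and did not meet the rule for naming. The 9 muscle fiber markers had a median log2 fold change of 1.06, and their part in the values was not tested.

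**Figure D5:**
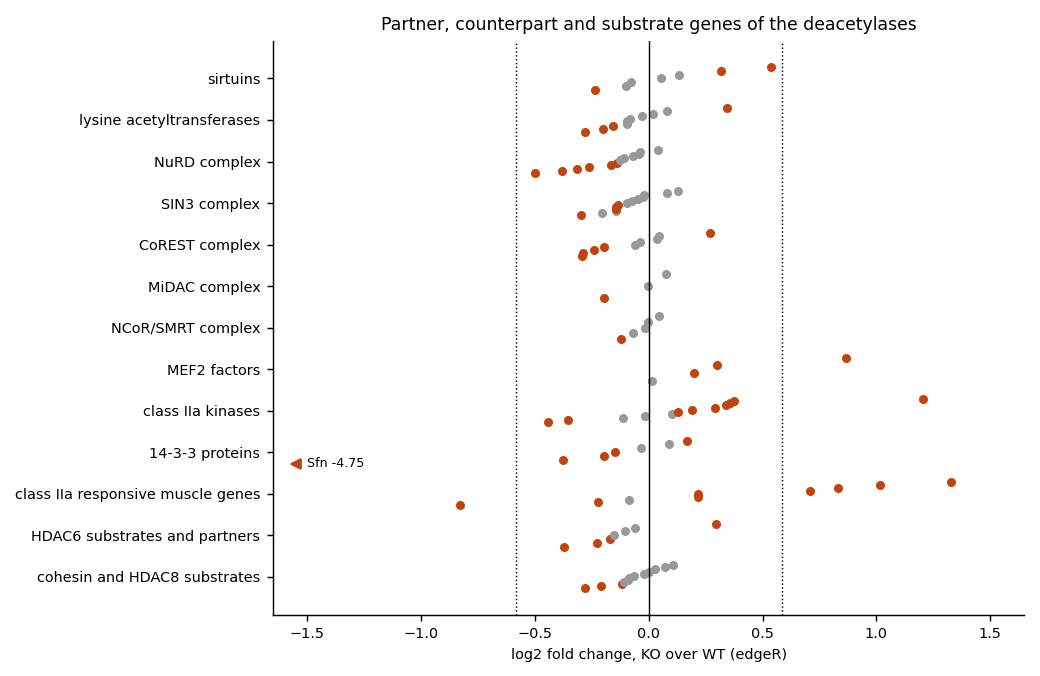
Log2 fold change of KO over WT from edgeR for each gene of each partner list, in orange where the adjusted p is under 0.05. Dotted lines mark a 1.5-fold change, and a gene beyond the axis, such as *Sfn* (-4.75), is shown by an arrowhead with its name. MEF2 factors (3 of 4), class IIa kinases (7 of 12) and class IIa responsive muscle genes (6 of 9) hold the most called higher, and NuRD (6 of 12) and 14-3-3 proteins (4 of 7) the most called lower.

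Of the substrates and partners of *Hdac6*, 3 of 7 were lower and 1 higher (median -0.15). *Hsp90aa1* had 338 ± 11.3 CPM in WT samples and 261 ± 10.3 CPM in KO samples (-0.37), and *Hsp90ab1* had 1844 ± 85.0 and 1574 ± 19.4 CPM (-0.23). Both encode the HSP90 chaperone that HDAC6 deacetylates. *Plaa*, a ubiquitin-binding partner, was lower by 0.17 on the log2 scale and did not pass with upper-quartile factors. *Sqstm1*, the autophagy receptor p62, was higher, with 149 ± 2.65 and 183 ± 9.16 CPM (0.29, edgeR adjusted p = 0.000641).

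The opposing enzymes and the NAD-dependent deacetylases were mixed. Of 10 lysine acetyltransferases, 1 was higher and 3 lower (median -0.089), and 2 and 2 under upper-quartile factors. *Kat2b*, a coactivator of MyoD, had 26.9 ± 0.414 CPM in WT samples and 34.2 ± 0.693 CPM in KO samples (0.34, edgeR adjusted p = 0.000118), while its paralog *Kat2a* was lower (-0.16, not passing with upper-quartile factors). *Hat1*, which acetylates new histones, had 38.9 ± 0.529 and 32.0 ± 1.68 CPM (-0.28), and *Kat6a* had 84.1 ± 2.23 and 73.1 ± 3.19 CPM (-0.20). Of 7 sirtuins, 2 were higher and 1 lower (median 0.054). The mitochondrial *Sirt3* had 6.39 ± 0.312 and 9.28 ± 0.279 CPM (0.54, edgeR adjusted p = 0.00014) and *Sirt4* had 12.9 ± 0.828 and 16.1 ± 0.736 CPM (0.32). The nucleolar *Sirt7* was lower, with 19.1 ± 0.872 and 16.3 ± 0.348 CPM (-0.24).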

How the data were processed

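RNA-seq counts of leg muscle from E18.5d fetuses were used (3 WT, 3 KO); the paper's other experiments were not used here. Per its methods and the processing notes, the authors trimmed reads with Trim Galore 0.6.6, mapped them to mm10 with HISAT2 2.2.1 and counted them per gene with featureCounts 2.0.1. They deposited raw counts; the annotation and strand setting are not given in the sources used here. How reads of overlapping genes were assigned is therefore not known.

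Counts were tested with edgeR 4.0.16 (R 4.3.3; filterByExpr, TMM, quasi-likelihood test on genotype alone), with Benjamini-Hochberg adjustment over 22071 genes and a threshold of 0.05; the study's 1.5-fold was an alternative. CPM use TMM-scaled totals of the genes tested. Exon lengths and positions are from GENCODE M21, which held 55227 of the 56262 IDs. Shares and ratios were compared with exact permutation tests. Further alternatives were RLE and upper-quartile factors, library size only, DESeq2 1.42.0, limma-voom (limma 3.58.1), other filters, a replicate block, a covariate for the Y-linked share of counts and leaving out each sample; none of them was added later. The tests were run on simulated data first. Samples of a genotype differed by more than counting noise.

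HDAC genes and lists were chosen with earlier results of these data known. Other genes of the family were not analysed here. All 10 HDAC genes analysed are named. Of each partner list, up to 3 genes a direction are named. They are those with the largest change among genes called with a mean of 5 CPM or more and separate WT and KO values.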

Additional observations from a re-analysis of the deposited data

How the results depend on the processing

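With library size only in place of TMM, 1 HDAC gene was called higher and 5 lower: *Hdac4* was no longer called (0.093), *Hdac2* (-0.19), *Hdac3* (-0.15), *Hdac8* (-0.23) and *Hdac11* (-0.18) were called lower, and *Hdac5* turned to -0.013. With upper-quartile factors, *Hdac7* was called (0.15), and *Hdac6* turned to 0.061. A covariate for the Y-linked share of counts gave 2 lower (*Hdac11*, -0.14) and *Hdac5* at -0.0046. *Hdac8* was called at -0.16 with limma-voom and with at least 10 counts in every sample, each giving 2 lower. A fold change over 1.5 left 0 HDAC genes higher and 0 lower, 1835 and 1852 of all genes, and 6 and 2 partner genes. Partner genes called lower were 21 with upper-quartile factors and 52 with library size only. The cause of these shifts was not tested.

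Without each sample in turn, HDAC genes called lower ranged from 1 to 2 (*Hdac2* without WT sample 3, *Hdac8* without KO sample 1), *Hdac2* from -0.17 to -0.074, *Hdac8* from -0.18 to -0.14, *Hdac5* from -0.031 (without WT sample 1) to 0.13, and *Hdac6* from -0.034 to 0.024, with 0.0033 without WT sample 2 and 0.024 without KO sample 3. The rest kept their direction and side of the threshold. The class IIa share differed by 3.92 points without the length and by as little as 1.95 without a single gene, the class IIb share by 0.117 without the length, and the class IV share by -0.249 at the most without a single gene, and by -0.130 without WT sample 1 and -0.026 without WT sample 2.

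Same-numbered samples correlated at -0.20, -0.13 and 0.047 in their deviations from the group means and share only a number. With the replicate block, 4338 of all genes were higher and 4522 lower, 22 and 29 partner genes, and 2 and 1 HDAC genes.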
